A study of Homo sapiens and Mus musculus with 18 samples.

Results

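The genes described here are 38 repair genes that act on damaged or mispaired bases and on single DNA strands, or that let replication pass a lesion. They were taken from the 2 deposited expression tables by gene symbol, ignoring case. All 38 were among the 15069 genes of the human table and 37 were among the 12264 genes of the mouse table, where MGMT was not analysed here. By role, 17 act in base excision and single-strand break repair, 13 in nucleotide excision repair, 4 in mismatch repair or direct reversal and 4 in translesion synthesis. RNA was sequenced from the human Burkitt lymphoma line BL41 and from J3D, a mouse line that the labels also call Burkitt lymphoma. Cells of each line received 5 Gy of X-rays from a linear accelerator, 5 Gy of scanned protons at the centre of a spread-out Bragg peak, or a sham treatment at room temperature outside the incubator. RNA was taken 12 h later, with 3 libraries in each group of each line and 18 libraries in all. Nothing in the labels shows that libraries of 1 group were grown apart, and p-values therefore describe the spread of these libraries alone, which may be technical.

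Ionizing radiation damages bases and breaks single strands far more often than it breaks both strands. In base excision repair a glycosylase removes the damaged base, the endonuclease APEX1 cuts the backbone, and POLB, LIG3 and XRCC1 fill and seal the gap, while PARP1 and PARP2 mark the open strand. Nucleotide excision repair cuts out bulky lesions that XPC or DDB2 recognise, mismatch repair corrects replication errors, and translesion polymerases copy past lesions that remain. In human cells DDB2, XPC and POLH are known targets of the transcription factor p53. UNG, uracil-DNA glycosylase, removes uracil from DNA. In B cells it also processes the uracils that AID makes in the antibody genes, and the nuclear form of the human protein is most abundant in S phase.

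UNG was the 1 gene of the 38 that passed the test in BL41, so the sequences at its 2 start sites are shown. That of PCNA is shown beside them, since PCNA is the sliding clamp to which UNG binds at replication forks and a repair gene outside the 38 that also passed. UNG makes a nuclear and a mitochondrial form from alternative starts, and a value per gene does not separate them. The windows come from RefSeq (GRCh38.p14), run from 250 bases before to 50 bases after a start, and are printed 5′ to 3′ on the gene's strand. The plus-strand UNG windows are chr12:109097347-109097646 and chr12:109097922-109098221, and the minus-strand PCNA window is chr20:5126573-5126872. Capitals mark matches on either strand to TTCCCGC, the usual form of the E2F-type motif, or to any of 3 variants of it. A first variant reads TTGGCGC, and a further variant that is also counted reads TTCGCGC, and the remaining variant, TTGCCGC, was counted on either strand as well.
UNG, upstream start: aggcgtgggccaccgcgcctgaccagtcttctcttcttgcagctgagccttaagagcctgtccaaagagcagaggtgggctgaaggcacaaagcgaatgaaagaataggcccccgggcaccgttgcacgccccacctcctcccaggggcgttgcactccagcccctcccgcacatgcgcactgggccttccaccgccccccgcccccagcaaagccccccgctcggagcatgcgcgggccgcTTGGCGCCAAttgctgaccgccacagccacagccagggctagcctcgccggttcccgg
UNG, downstream start: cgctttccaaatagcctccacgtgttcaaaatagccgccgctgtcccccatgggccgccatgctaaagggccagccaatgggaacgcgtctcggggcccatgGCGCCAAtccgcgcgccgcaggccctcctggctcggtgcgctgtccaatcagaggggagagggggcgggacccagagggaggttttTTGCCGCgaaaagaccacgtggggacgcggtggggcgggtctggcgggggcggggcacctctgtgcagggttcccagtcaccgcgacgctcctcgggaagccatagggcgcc
PCNA: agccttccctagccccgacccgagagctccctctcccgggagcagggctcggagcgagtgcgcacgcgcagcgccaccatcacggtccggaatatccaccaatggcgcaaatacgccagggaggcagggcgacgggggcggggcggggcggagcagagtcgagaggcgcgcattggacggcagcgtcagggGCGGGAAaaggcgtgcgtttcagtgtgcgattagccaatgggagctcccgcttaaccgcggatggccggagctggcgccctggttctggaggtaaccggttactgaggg
In the upstream UNG window, TTGGCGC was found on both strands in overlapping positions, with first bases at -8 and -5 from the start. In the downstream window, TTGGCGC lay on the strand opposite to the gene's at -148 and TTGCCGC on the gene's strand at -62. The PCNA window held TTCCCGC on the strand opposite to the gene's at -59. The window of its other listed start, chr20:5119909-5120208, held no match. Of the 2 other repair genes that fell, FEN1 held no match in its window, chr11:61792661-61792960. USP1 held TTGGCGC on the strand opposite to the gene's in each of its 2 windows. Of the 36 repair genes with a window in the RefSeq table, 19 (52.8%) held a match in any window, against 15.3% of all 27305 genes with a window and 25.3% of the 8888 genes of the BL41 table with one. A match describes these letters and no more.

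The deposited values are on a log scale, read here as log2 because the base is not stated, and each is relative to a baseline of its own gene within its library number. Values of different numbers thus share no common baseline, which bears on every count of groups that do not overlap. They give differences between libraries but no absolute level and no depth, so levels were not compared between genes. A lower value cannot tell less RNA per cell from fewer cells of a kind. In J3D the 3 libraries numbered 1 stood apart, with interquartile ranges over all genes of 0.342 to 0.395 against 0.139 to 0.238 in the other 6, so J3D folds of the genes described by library are also given without them. In BL41 the second sham library had the lowest mean over all genes, -0.133. All 8 listed B cell markers, CD79A and CD79B among them, were in the BL41 table. Of these markers CD22 was in the J3D table and the other 7 were not analysed there, and relative values cannot show how high any of them stood.

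In BL41, UNG was lower after either beam. UNG (ENSG00000076248) stood at -0.48, -0.19 and -0.51 in the X-ray libraries, at 0.05, -0.13 and -0.19 in the proton libraries and at 0.23, 0.41 and 0.49 in the sham libraries. Every irradiated library lay below every sham library. UNG fell by 0.77 ± 0.11 log2 units after X-rays (SE, 3 libraries per group, 95% interval -1.03 to -0.52), with an adjusted p of 0.0173 by limma with Benjamini-Hochberg adjustment over all genes. After protons it fell by 0.47 ± 0.11 (95% interval -0.73 to -0.22; adjusted p = 0.0433). Both comparisons use the same sham libraries. The SEs and intervals here and below come from the fit without the library number, which is liberal on values centred within numbers. GENCODE 29 lists 2 UNG pseudogenes, UNGP1 and UNGP3, and how reads shared with them were counted is not known. No other gene of the 38 passed in BL41, where 5.35% of all 15069 genes passed after X-rays and 6.82% after protons. Those shares count both directions, with 78 genes lower and 728 higher after X-rays and 136 lower and 891 higher after protons. With the library number as a further term the UNG differences kept their size and missed the threshold, at adjusted p = 0.0968 after X-rays and 0.163 after protons. The X-ray call was lost when X-ray library 1 (adjusted p = 0.0769), sham library 2 (0.0683) or sham library 3 (0.104) was left out, and the proton call was lost when any library but X-ray library 2 was left out (0.0523 to 0.198).

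**Figure D1:**
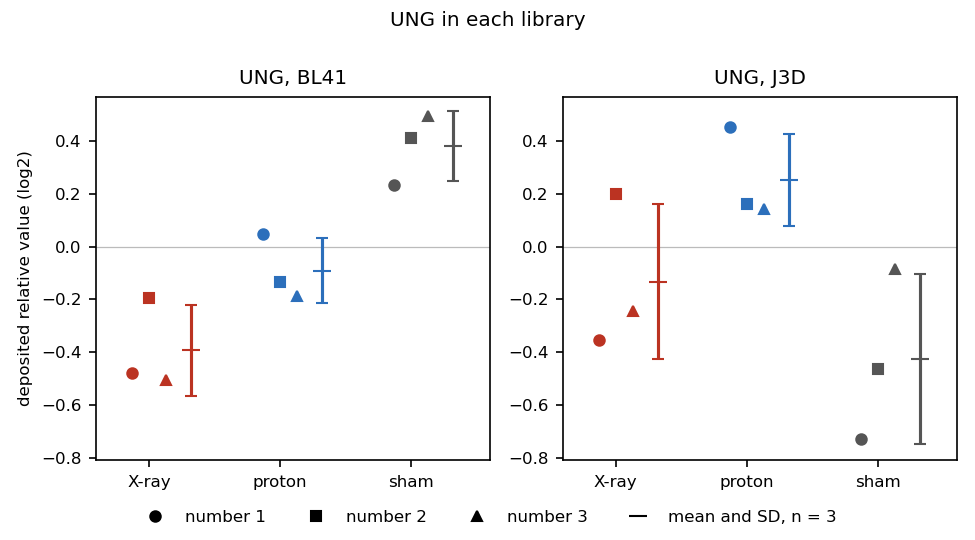
Deposited relative values of UNG (log2) in each library of BL41, left, and J3D, right, by group, with the mean and SD of 3 libraries beside them. In BL41 all X-ray and proton values lie below the sham values, which run between 0.23 and 0.49. In J3D all proton values lie above the sham values, and the circles, the libraries numbered 1, lie farthest from 0 in each group.

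The other 16 genes of base excision and single-strand break repair did not pass in BL41. At an unadjusted p under 0.05, 5 of the 17 differed after X-rays, 4 higher and UNG lower, and 6 differed after protons, 5 higher and UNG lower, where 23.6% of all genes did after X-rays and 28.4% after protons. Their folds ran from -0.77 to 0.37 after X-rays and from -0.47 to 0.48 after protons, with medians of 0.04 and 0.08, against medians over all genes of 0.09 after X-rays and 0.12 after protons. At the other end from UNG stood MUTYH, the glycosylase that removes adenine paired with oxidised guanine. MUTYH was at -0.11, 0.35 and -0.19 in the X-ray libraries, at 0.28, -0.0035 and 0.11 in the proton libraries and at -0.29, -0.44 and -0.34 in the sham libraries. All 6 irradiated libraries lay above the sham libraries, and the X-ray libraries were spread the widest. The differences were 0.37 ± 0.15 after X-rays (adjusted p = 0.182) and 0.48 ± 0.15 after protons (adjusted p = 0.086), neither past the threshold.

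Among the remaining glycosylases, SMUG1, which also removes uracil, came closest to the threshold. SMUG1 was at 0.15, 0.07 and 0.01 in the X-ray libraries, at 0.19, 0.01 and 0.05 in the proton libraries and at -0.25, -0.07 and -0.36 in the sham libraries. The irradiated libraries all lay above the sham libraries, opposite in direction to UNG. The differences were 0.30 ± 0.09 after X-rays (adjusted p = 0.0846) and 0.31 ± 0.09 after protons (adjusted p = 0.0698). TDG, which removes thymine and uracil from mispairs with guanine, differed by 0.04 ± 0.07 after X-rays and 0.24 ± 0.07 after protons (adjusted p = 0.0772). MBD4, which acts on the same mispairs, stood at -0.04 ± 0.10 after X-rays and -0.0047 ± 0.10 after protons. The other glycosylases for oxidised bases lay within 1 SE of 0 in BL41. OGG1 differed by -0.04 ± 0.08 after X-rays and -0.07 ± 0.08 after protons. NTHL1 differed by 0.03 ± 0.08 after X-rays and -0.0062 ± 0.08 after protons. NEIL1 differed by 0.02 ± 0.23 after X-rays and 0.01 ± 0.23 after protons, with the largest SE of the 38 genes in BL41. MPG, which removes alkylated bases, differed by 0.24 ± 0.12 after X-rays and 0.10 ± 0.12 after protons.

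None of the genes of the later steps passed in BL41. APEX1, the endonuclease, differed by -0.13 ± 0.07 after X-rays and 0.01 ± 0.07 after protons, and its X-ray libraries all lay below the sham libraries. PARP1 differed by -0.08 ± 0.08 after X-rays and -0.11 ± 0.08 after protons, and PARP2 by -0.10 ± 0.07 after X-rays and 0.02 ± 0.07 after protons. Both enzymes make the poly(ADP-ribose) that gathers XRCC1 at a break. The polymerase POLB differed by 0.10 ± 0.07 after X-rays and 0.08 ± 0.07 after protons, and the ligase LIG3 by 0.08 ± 0.10 after X-rays and 0.19 ± 0.10 after protons. The scaffold XRCC1 differed by 0.18 ± 0.07 after X-rays and 0.10 ± 0.07 after protons. Enzymes that clean blocked strand ends complete the group. APTX, which removes AMP left by a failed ligation, differed by 0.06 ± 0.08 after X-rays and by 0.31 ± 0.08 after protons (adjusted p = 0.0566). Its proton libraries all lay above the sham libraries. TDP1, which frees DNA ends from trapped topoisomerase I, differed by 0.17 ± 0.08 after X-rays and 0.21 ± 0.08 after protons, with no overlap with sham in either comparison (adjusted p = 0.2 after X-rays and 0.115 after protons).

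None of the 13 nucleotide excision genes passed in BL41. At an unadjusted p under 0.05, 3 were higher after X-rays and 1 was higher after protons, again beside 23.6% of all genes after X-rays and 28.4% after protons. Their folds ran from -0.16 to 0.29 after X-rays and from -0.44 to 0.46 after protons, with a median of 0.07 in each. ERCC4 (XPF), the nuclease that cuts on the 5′ side of the lesion, had the highest mean difference. ERCC4 was at 0.13, -0.0029 and -0.13 in the X-ray libraries, at 0.25, 0.29 and -0.01 in the proton libraries and at -0.30, -0.46 and -0.09 in the sham libraries. The proton libraries lay above the sham libraries, and the X-ray libraries overlapped them. The differences were 0.29 ± 0.12 after X-rays (adjusted p = 0.197) and 0.46 ± 0.12 after protons (adjusted p = 0.0559). ERCC1, its partner in the nuclease, differed by -0.02 ± 0.09 after X-rays and -0.03 ± 0.09 after protons. The helicase ERCC2 (XPD) was at 0.09, 0.25 and 0.09 in the X-ray libraries, at 0.0039, -0.02 and 0.04 in the proton libraries and at -0.02, -0.21 and -0.18 in the sham libraries. All irradiated libraries lay above the sham libraries, with the X-ray libraries the higher. Its differences were 0.28 ± 0.08 after X-rays (adjusted p = 0.0734) and 0.15 ± 0.08 after protons. The other 7 genes of the group besides the p53 targets and DDB1 are the helicase ERCC3, the 3′ nuclease ERCC5, the lesion-verifying XPA, the transcription-coupled factors ERCC6 and ERCC8, and the XPC partners RAD23B and CETN2. They lay between -0.16 (RAD23B) and 0.21 (CETN2) after X-rays and between -0.03 (RAD23B) and 0.17 (CETN2) after protons.

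DDB2, the lesion sensor that is a known p53 target in human cells, had the lowest mean of the 2 folds among the nucleotide excision genes, although RAD23B was lower after X-rays (-0.16). In BL41 DDB2 was at 0.53, -0.13 and 0.18 in the X-ray libraries, at -0.48, -0.16 and 0.04 in the proton libraries and at 0.43, 0.37 and -0.06 in the sham libraries. The groups overlapped and libraries of 1 group spread over more than the distance between groups. The differences were -0.05 ± 0.22 after X-rays (95% interval -0.55 to 0.44; adjusted p = 0.917) and -0.44 ± 0.22 after protons (-0.94 to 0.05; adjusted p = 0.22). Its partner DDB1 differed by 0.07 ± 0.09 after X-rays and 0.19 ± 0.09 after protons. XPC, the sensor of helix distortion, was at 0.11, 0.08 and -0.05 in the X-ray libraries, at -0.07, 0.03 and 0.01 in the proton libraries and at 0.05, -0.17 and 0.04 in the sham libraries. These groups overlapped as well, within a narrow range. XPC differed by 0.08 ± 0.08 after X-rays (95% interval -0.11 to 0.27) and 0.02 ± 0.08 after protons (-0.17 to 0.21).

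POLH, the translesion polymerase that copies past ultraviolet lesions, was the other known p53 target. POLH was at 0.11, 0.23 and 0.01 in the X-ray libraries of BL41, at -0.05, 0.00064 and 0.11 in the proton libraries and at 0.08, -0.22 and 0.17 in the sham libraries, with all groups overlapping. It differed by 0.10 ± 0.13 after X-rays (95% interval -0.18 to 0.39) and 0.01 ± 0.13 after protons (-0.28 to 0.29). In the same libraries CDKN1A, the p53-induced cell cycle inhibitor, was at 0.23, 0.36 and 0.16 after X-rays, at 0.20, 0.07 and 0.29 after protons and at -0.52, -0.61 and -0.64 in sham. CDKN1A rose by 0.84 ± 0.09 after X-rays (adjusted p = 0.00869) and by 0.78 ± 0.09 after protons (adjusted p = 0.0129), and with the library number as a term neither difference passed (adjusted p = 0.0942 after X-rays and 0.122 after protons). MDM2, the p53 inhibitor that p53 induces, did not pass, at -0.30 ± 0.16 after X-rays and -0.06 ± 0.16 after protons.

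**Figure D2:**
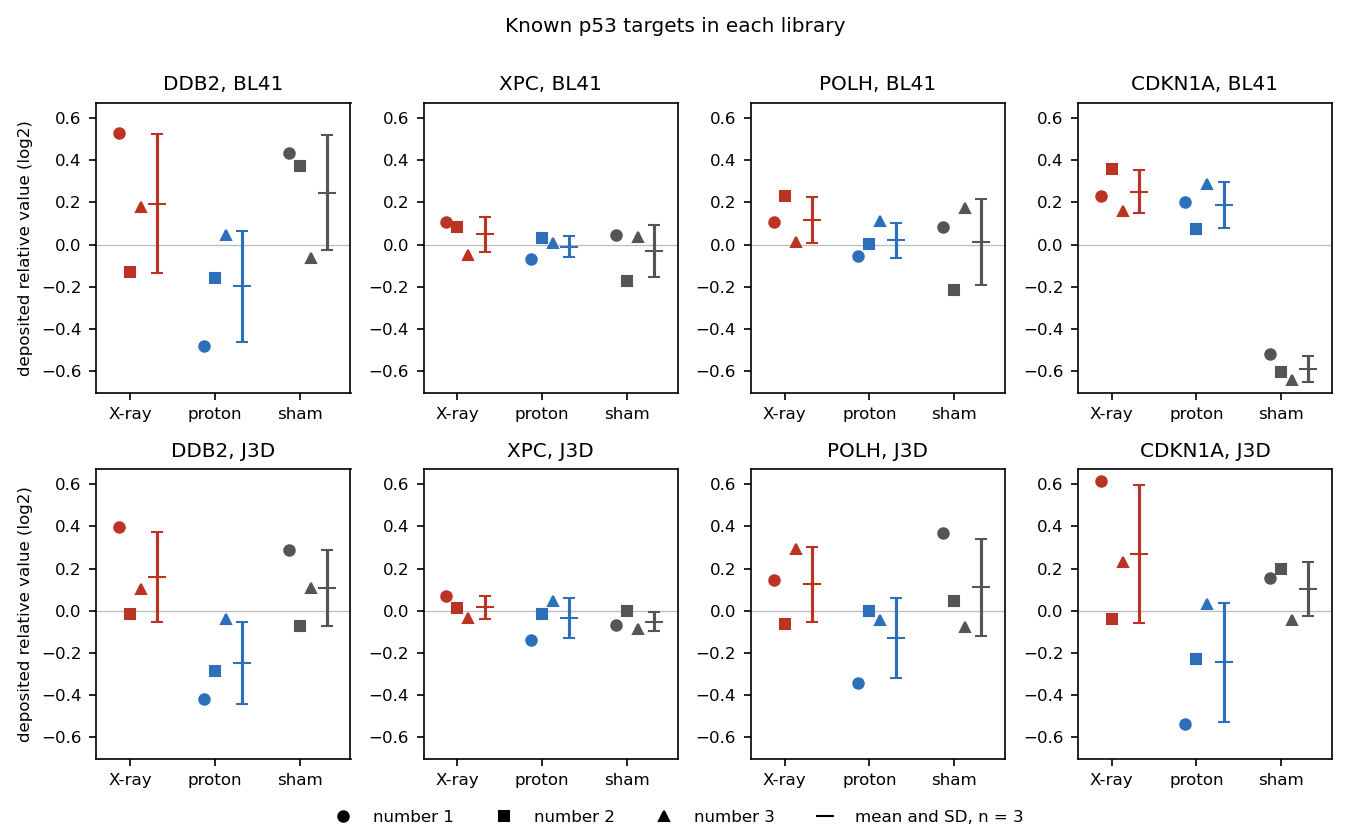
Deposited relative values (log2) of the repair genes DDB2, XPC and POLH and of CDKN1A in each library of BL41, top, and J3D, bottom. The mean and SD of 3 libraries stand beside them. The 3 repair genes are known p53 targets in human cells, and J3D is a mouse line. CDKN1A separates irradiated from sham libraries in BL41, with sham between -0.64 and -0.52, while for the 3 repair genes each irradiated group overlaps its sham group in both lines.

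Of the 4 genes of mismatch repair and direct reversal, none passed in BL41. MSH6, the subunit that recognises single mispaired bases, was at -0.04, -0.05 and -0.21 in the X-ray libraries, at -0.13, -0.02 and 0.03 in the proton libraries and at 0.20, 0.06 and 0.24 in the sham libraries. All irradiated libraries lay below the sham libraries. The differences were -0.26 ± 0.08 after X-rays (adjusted p = 0.1) and -0.20 ± 0.08 after protons (adjusted p = 0.151). MSH3, the alternative subunit for larger loops, differed by 0.0012 ± 0.08 after X-rays and by 0.25 ± 0.08 after protons (adjusted p = 0.0914). PMS2, the endonuclease subunit, was at -0.08, 0.10 and 0.05 in the X-ray libraries, at 0.15, -0.03 and 0.05 in the proton libraries and at -0.06, -0.18 and -0.10 in the sham libraries. The proton libraries lay above the sham libraries and the X-ray libraries overlapped them. Its differences were 0.13 ± 0.08 after X-rays and 0.17 ± 0.08 after protons. They are uncertain because GENCODE 29 lists 11 PMS2 pseudogenes by name, which could share its reads. How alike the sequences are was not measured. By name it also lists 3 pseudogenes of RAD23B, 2 of PARP1 and 1 each of SMUG1, TDG and POLH, with the same limit. MGMT, which takes methyl groups off guanine directly, differed by 0.10 ± 0.09 after X-rays and -0.02 ± 0.09 after protons.

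The 4 translesion genes did not pass in BL41 either. RAD18, the ubiquitin ligase that tags PCNA to call in translesion polymerases, was at -0.25, -0.15 and -0.17 in the X-ray libraries, at 0.23, 0.12 and 0.02 in the proton libraries and at -0.07, -0.08 and -0.01 in the sham libraries. The X-ray libraries all lay below and the proton libraries all above the sham libraries. The differences from sham were -0.13 ± 0.08 after X-rays (adjusted p = 0.34) and 0.18 ± 0.08 after protons (adjusted p = 0.176). POLK, a polymerase that extends past bulky lesions, was at 0.16, 0.02 and -0.10 in the X-ray libraries, at 0.01, 0.20 and 0.13 in the proton libraries and at -0.08, -0.37 and -0.11 in the sham libraries. Its proton libraries lay above the sham libraries and its X-ray libraries overlapped them. POLK differed by 0.21 ± 0.10 after X-rays (adjusted p = 0.241) and 0.30 ± 0.10 after protons (adjusted p = 0.101). REV1, the scaffold of the translesion polymerases, differed by 0.18 ± 0.09 after X-rays and 0.05 ± 0.09 after protons.

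Counted over all 38 genes in BL41, 9 (23.7%) had an unadjusted p under 0.05 after X-rays, 7 higher and 2 lower, against 23.6% of all genes. After protons 11 (28.9%) did, 9 higher and 2 lower, against 28.4%. Groups of 3 did not overlap for 11 genes (28.9%) after X-rays, 6 above and 5 below sham, against 26.2% of all genes, and for 16 (42.1%) after protons, 14 above and 2 below, against 34.5%. Both shares after X-rays and the share at an unadjusted p after protons were thus close to those of all genes. The share without overlap after protons was higher, counted on unscaled values. All but UNG lay within 0.5 log2 units of sham after X-rays and all 38 did after protons. The signs depend on scaling. Scaling each library by its trimmed mean moved the median over all genes from 0.09 to -0.01 after X-rays and from 0.12 to 0.0041 after protons. Without scaling 26 of the 38 were above sham after X-rays and 28 after protons, with medians of 0.07 and 0.08. With it 13 were above sham after X-rays (median -0.035) and 15 after protons (median -0.040). Under that scaling UNG stood at -0.88 after X-rays and -0.59 after protons, and MSH6 at -0.37 after X-rays (adjusted p = 0.0479) and -0.32 after protons (adjusted p = 0.0619).

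**Figure D3:**
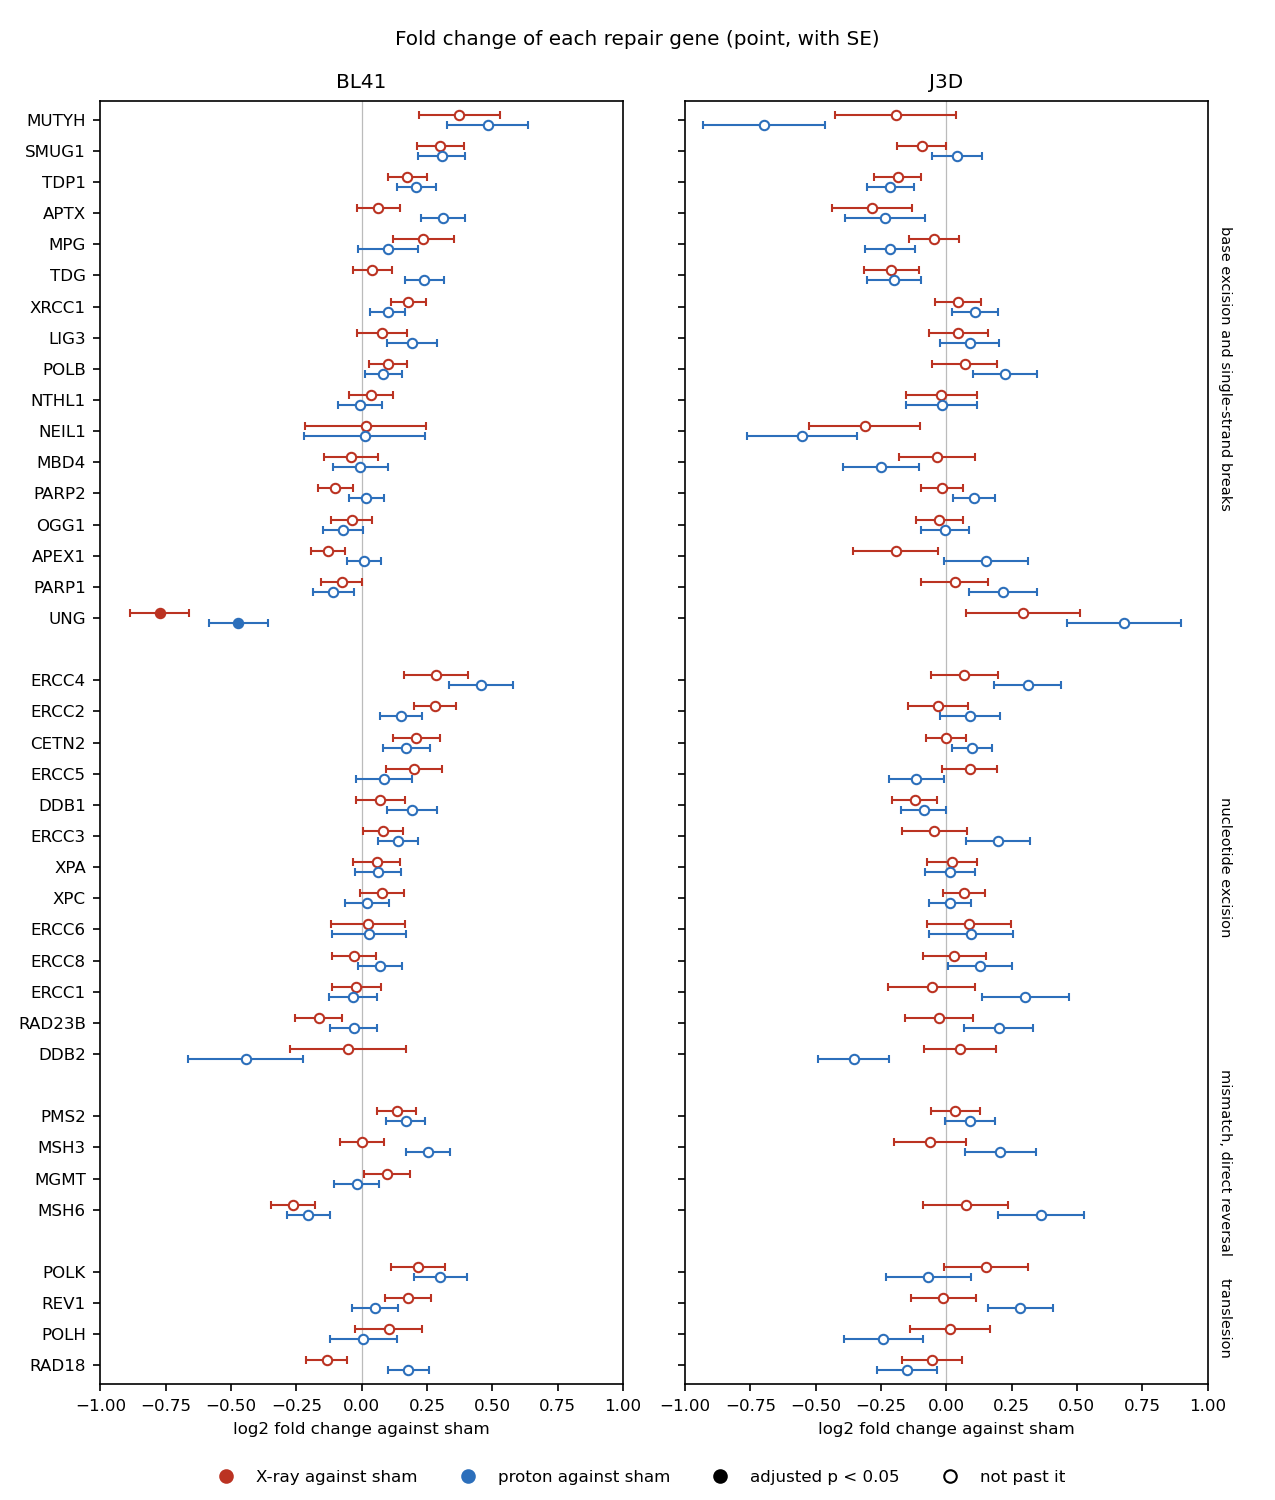
Log2 fold change against sham with its SE for each of the 38 repair genes in BL41 and 37 in J3D, grouped by pathway, after X-rays (red) and protons (blue). Filled points have an adjusted p under 0.05. UNG in BL41, at -0.77 and -0.47, carries the only filled points, and most other genes lie within 0.5 of 0.

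From a wider list of 38 other repair genes, 36 were in the BL41 table, and GTF2H4, which stands there on 5 lines, was not counted. Of the 35 left, 3 fell after X-rays, and 2 fell and 1 rose after protons. Of all genes, 5.35% passed in either direction after X-rays and 6.82% after protons. Of all 15069 genes, 728 rose and 78 fell after X-rays, and 891 rose and 136 fell after protons. The counts of repair genes are small, and the list was chosen with earlier results of these data known. PCNA was at -0.08, -0.25 and -0.27 in the X-ray libraries, at -0.15, -0.16 and -0.22 in the proton libraries and at 0.29, 0.41 and 0.33 in the sham libraries. As for UNG, every irradiated library lay below every sham library. PCNA fell by 0.54 ± 0.07 after X-rays (adjusted p = 0.0143) and by 0.52 ± 0.07 after protons (adjusted p = 0.0167). FEN1, the nuclease that trims the displaced flap in long-patch base excision repair and in replication, fell by 0.36 ± 0.07 after X-rays (adjusted p = 0.0266), and stood at -0.21 ± 0.07 after protons, short of the threshold. USP1, which removes the ubiquitin that RAD18 places on PCNA, fell by 0.32 ± 0.07 after X-rays (adjusted p = 0.0379) and by 0.29 ± 0.07 after protons (adjusted p = 0.0475). GTF2H5, a small subunit of the TFIIH complex that holds the helicases ERCC2 and ERCC3, rose by 0.37 ± 0.07 after protons (adjusted p = 0.0285). With trimmed mean scaling GTF2H5 stood at 0.25 (adjusted p = 0.111), and with the library number as a term none of these 6 differences passed, with adjusted p between 0.0942 and 0.18.

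**Figure D4:**
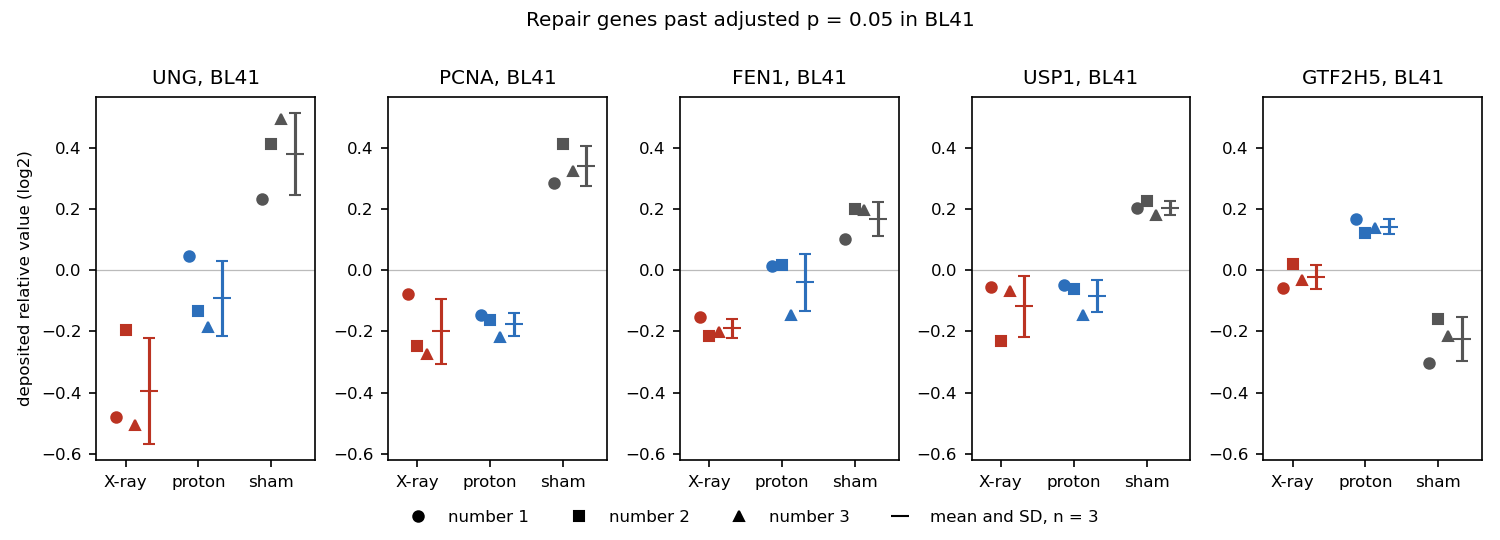
Deposited relative values (log2) of UNG and of 4 repair genes outside the 38 in the BL41 libraries, with the mean and SD of 3 libraries beside them. The irradiated libraries of UNG, PCNA, FEN1 and USP1 lie below their sham libraries, and those of GTF2H5 lie above.

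In J3D no gene passed in any comparison (0% of 12264 genes after X-rays, after protons and for protons against X-rays), and so none of the 37 repair genes did, nor any of the 37 other repair genes in that table. At an unadjusted p under 0.05 none of the 37 differed after X-rays, against 6.24% of all genes. After protons 9 (24.3%) did, 4 higher and 5 lower, against 19.8%. The X-ray folds ran from -0.31 to 0.29 with a median of -0.02, and the proton folds from -0.70 to 0.68 with a median of 0.09. Without the libraries numbered 1 the X-ray folds ran from -0.48 to 0.25 and the proton folds from -0.55 to 0.43, with 3 genes (8.11%) at an unadjusted p under 0.05 in each comparison, against 13.6% of all genes after X-rays and 11.8% after protons. Groups did not overlap for 2 genes (5.41%) after X-rays, APTX and TDP1, both below sham, against 9.79% of all genes. After protons this held for 12 (32.4%), 6 above and 6 below, against 38.6%.

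UNG was at the upper end of the J3D genes. In J3D UNG (ENSMUSG00000029591) was at -0.36, 0.20 and -0.24 in the X-ray libraries, at 0.45, 0.16 and 0.14 in the proton libraries and at -0.73, -0.46 and -0.09 in the sham libraries. The proton libraries lay above the sham libraries and the X-ray libraries overlapped them. UNG differed by 0.29 ± 0.22 after X-rays (adjusted p = 0.944) and by 0.68 ± 0.22 after protons (adjusted p = 0.247), and without the libraries numbered 1 by 0.25 after X-rays and 0.43 after protons. MUTYH stood at the other end, at 0.52, -0.02 and 0.07 in the X-ray libraries, at -0.51, -0.56 and 0.14 in the proton libraries and at 0.48, 0.47 and 0.21 in the sham libraries. It differed by -0.19 ± 0.23 after X-rays and by -0.70 ± 0.23 after protons (adjusted p = 0.247), and without the libraries numbered 1 by -0.31 after X-rays and -0.55 after protons. The proton libraries of MUTYH lay below the sham libraries, and its X-ray libraries overlapped them. NEIL1, a glycosylase for oxidised pyrimidines, differed by -0.31 ± 0.21 after X-rays and -0.55 ± 0.21 after protons, and without those libraries by -0.48 after X-rays and -0.32 after protons.

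Among the nucleotide excision genes of J3D, DDB2 was the lowest and ERCC4 the highest by the mean of the 2 folds. DDB2 was at 0.40, -0.02 and 0.10 in the X-ray libraries, at -0.42, -0.28 and -0.04 in the proton libraries and at 0.29, -0.07 and 0.11 in the sham libraries. It differed by 0.05 ± 0.14 after X-rays and by -0.35 ± 0.14 after protons (adjusted p = 0.247), and without the libraries numbered 1 by 0.02 after X-rays and -0.18 after protons. ERCC4 was at -0.31, 0.11 and -0.11 in the X-ray libraries, at 0.27, 0.10 and 0.05 in the proton libraries and at -0.31, -0.07 and -0.14 in the sham libraries. The proton libraries of ERCC4 lay above the sham libraries, and those of DDB2 overlapped them. ERCC4 differed by 0.07 ± 0.13 after X-rays and by 0.31 ± 0.13 after protons (adjusted p = 0.247), or 0.10 after X-rays and 0.18 after protons without the libraries numbered 1. XPC was at 0.07, 0.01 and -0.03 in the X-ray libraries, at -0.14, -0.02 and 0.05 in the proton libraries and at -0.07, 0.00042 and -0.08 in the sham libraries, all groups overlapping. It differed by 0.07 ± 0.08 after X-rays and 0.01 ± 0.08 after protons, and CDKN1A by 0.17 ± 0.19 after X-rays and -0.35 ± 0.19 after protons, none past the threshold. Without the libraries numbered 1 XPC differed by 0.03 after X-rays and 0.06 after protons, and CDKN1A by 0.02 after X-rays and -0.18 after protons.

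In the mismatch group of J3D, MSH6 was at -0.49, 0.15 and -0.08 in the X-ray libraries, at 0.27, 0.06 and 0.11 in the proton libraries and at -0.24, -0.26 and -0.15 in the sham libraries. It differed by 0.07 ± 0.16 after X-rays and by 0.36 ± 0.16 after protons (adjusted p = 0.253), and without the libraries numbered 1 by 0.24 after X-rays and 0.29 after protons. The proton libraries of MSH6 lay above the sham libraries and the X-ray libraries overlapped them. PMS2, lowest of the group by the mean of the 2 folds, was at -0.20, 0.08 and 0.01 in the X-ray libraries, at 0.02, -0.01 and 0.04 in the proton libraries and at 0.01, -0.08 and -0.15 in the sham libraries. Its groups overlapped, and it differed by 0.03 ± 0.09 after X-rays and 0.09 ± 0.09 after protons, and MSH3 by -0.06 ± 0.14 after X-rays and 0.21 ± 0.14 after protons. Without those libraries PMS2 differed by 0.16 after X-rays and 0.13 after protons, and MSH3 by -0.0045 after X-rays and 0.04 after protons. In the translesion group REV1 was at -0.34, 0.04 and -0.12 in the X-ray libraries, at 0.29, 0.05 and 0.13 in the proton libraries and at -0.30, 0.02 and -0.10 in the sham libraries. It differed by -0.01 ± 0.12 after X-rays and 0.28 ± 0.12 after protons (adjusted p = 0.249), and without the libraries numbered 1 by 0.0036 after X-rays and 0.13 after protons. The proton libraries of REV1 lay above the sham libraries. POLH, lowest of the group by the mean of the 2 folds, was at 0.14, -0.06 and 0.29 in the X-ray libraries, at -0.34, -8.6e-05 and -0.04 in the proton libraries and at 0.37, 0.05 and -0.08 in the sham libraries. All groups of POLH overlapped. It differed by 0.01 ± 0.15 after X-rays and -0.24 ± 0.15 after protons, and without the libraries numbered 1 by 0.13 after X-rays and -0.0053 after protons.

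Protons were also set against X-rays. In BL41 none of all 15069 genes passed (0%), and 11.8% of them had an unadjusted p under 0.05. Of the 38 repair genes 5 (13.2%) had an unadjusted p under 0.05, all higher after protons: RAD18 (0.31 ± 0.08), UNG (0.30 ± 0.11), MSH3 (0.25 ± 0.08), APTX (0.25 ± 0.08) and TDG (0.20 ± 0.07), with adjusted p between 0.404 and 0.411. The 95% interval of the UNG difference ran from 0.05 to 0.56, unadjusted and from the fit without the library number. With an adjusted p between 0.404 and 0.411, the data show neither that both beams lowered UNG alike nor that they differed. In J3D 2 of 37 (5.41%) had an unadjusted p under 0.05, DDB2 (-0.41 ± 0.14) and REV1 (0.30 ± 0.12), both at adjusted p = 0.392, against 11.9% of all genes. Without the libraries numbered 1 these differences were -0.20 for DDB2 and 0.13 for REV1, and none of the 37 had an unadjusted p under 0.05, against 4.86% of all genes.

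Of the 37 genes measured in both lines, 6 stood on opposite sides of sham in BL41 and J3D after protons, each in all 3 numbers of both lines. UNG and MSH6 were lower than sham in BL41 and higher in J3D, and MUTYH, TDG, APTX and TDP1 were higher in BL41 and lower in J3D. UNG and MUTYH lay farthest apart between the lines, at -0.47 in BL41 and 0.68 in J3D for UNG and at 0.48 in BL41 and -0.70 in J3D for MUTYH. The 6 are 16.2% of the 37, against 9.35% of the 8296 genes matched by symbol in both tables. Another 5 repair genes (13.5%), XRCC1, LIG3, ERCC4, MSH3 and PMS2, lay on the same side of sham in all 3 numbers of both lines, against 16.8% of the matched genes. After X-rays 1 gene (2.7%) stood on opposite sides, TDP1, at 0.17 in BL41 and -0.19 in J3D, against 4.99% of the matched genes. On the same side after X-rays were POLB, POLK and APEX1 (8.11%), against 5.44%. All these sides were counted on unscaled values and can change with scaling. In BL41 after protons the median over all genes was 0.09, 0.15 and 0.09 in numbers 1, 2 and 3. TDP1, XRCC1, LIG3 and ERCC4 lay above sham but below that median in at least 1 number. In J3D after protons the median over all genes was 0.039, 0.023 and 0.055 in numbers 1, 2 and 3. There XRCC1, LIG3, MSH3 and PMS2 lay above sham but below it in at least 1 number. After X-rays in BL41 the same held for POLB (0.0027 in number 2, median 0.19) and POLK (0.0052 in number 3, median 0.03). The tables of the 2 lines were normalized separately, and the difference between lines was not tested.

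**Figure D5:**
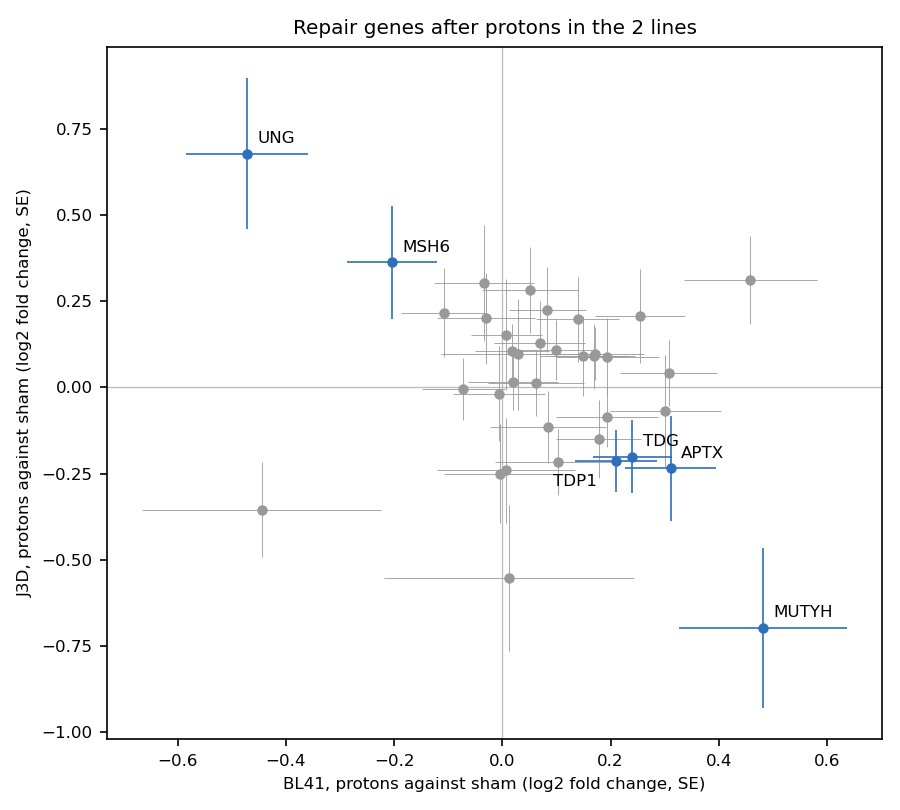
Log2 fold change after protons against sham in BL41, horizontal, and J3D, vertical, with SE bars, for the 37 repair genes in both tables. The 6 genes in blue went opposite ways in all 3 numbers of both lines, and UNG (-0.47 in BL41, 0.68 in J3D) and MUTYH (0.48 in BL41, -0.70 in J3D) lie farthest out, with TDG (0.24, -0.20), APTX (0.31, -0.23), TDP1 (0.21, -0.21) and MSH6 (-0.20, 0.36) between them and the centre, BL41 first in each pair.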

How the data were processed

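Transcripts were measured by RNA sequencing in 18 libraries. The submitters' processing notes name TopHat2 and the builds hg19 and mm10; no source used here gives the counting tool, annotation, strandedness or normalization. Per line, the authors deposited log values, read as log2, for each gene and library, relative to a baseline of each gene. Within each library number the centre of the values is the mean of 4 libraries, and 3 of them were analysed here: of genes whose 2 lowest values tied within 1e-06, 62.1 to 69.6% imply that the library not analysed had that same value and 0 that it lay below. Depth is unknown, and no count test was possible. The 38 genes, their roles and the list of other repair genes were chosen with earlier results of these data known.

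Each line was fitted by itself in limma 3.58.1 (R 4.3.3) on its 9 libraries with group as the term, a mean-variance trend and robust moderation. Benjamini-Hochberg adjustment ran over all genes of a table with a threshold of 0.05. The procedure was also run on simulated data. That outcome is not given here, so it cannot be read as support for the main fit. The centring correlates libraries of 1 number, so a fit with the number as a block was run too. Other alternatives were trimmed mean scaling (10% at each end), quantile normalization, both scaling and block, no trend or robust moderation, library weights, a filter on low values, a threshold of 0.1, and leaving out each library or number.

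Any of the 38 could be named; values per library are given for those past the threshold, for the lowest and highest mean fold of each role and line, for DDB2, XPC and POLH, and, chosen after their values were seen, for SMUG1 and ERCC2. Other repair genes are named where they passed. Of the marker lists, 2 of 6 T and NK cell, 1 of 6 myeloid and 2 of 5 stromal and epithelial genes were in the BL41 table, and 0, 2 and 0 in the J3D table; CD163, at 0.64 after X-rays in BL41, was the one marker that passed, and none of the 8 B cell markers did.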

Additional observations from a re-analysis of the deposited data

Results flagged for a closer look

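After protons, 6 of the 37 repair genes measured in both lines stood on opposite sides of sham in BL41 and J3D, in all 3 numbers of each line. UNG stood at -0.47 in BL41 and 0.68 in J3D, MSH6 at -0.20 in BL41 and 0.36 in J3D, and MUTYH at 0.48 in BL41 and -0.70 in J3D (log2 fold change against sham). TDG stood at 0.24 in BL41 and -0.20 in J3D, APTX at 0.31 in BL41 and -0.23 in J3D, and TDP1 at 0.21 in BL41 and -0.21 in J3D. After X-rays TDP1 did, at 0.17 in BL41 and -0.19 in J3D. Without the libraries numbered 1 the J3D values after protons were 0.43 for UNG, 0.29 for MSH6, -0.55 for MUTYH, -0.12 for TDG, -0.11 for APTX and -0.27 for TDP1. After protons 16.2% of the 37 repair genes stood on opposite sides in this way, against 9.35% of the 8296 genes matched by symbol in both tables, and after X-rays 2.7% did, against 4.99%. These were picked out because every library number moved one way in 1 line and the other way in the other. The sides are those of unscaled values and can change with scaling, as for TDP1 in BL41, below the median over all genes in 1 number after protons. The difference between the lines was not tested, and UNG in BL41 is the one value among them that passed the test against sham.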

How the results depend on the processing

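Over 4275 values of single genes under the alternatives, 3855 kept their direction and side of the threshold. Of the rest, 21 lost a call, 7 gained one with the same direction and 392 changed sign. None of these 392 was past the threshold under either setting. Only UNG in BL41 against sham had calls to lose, kept in 11 of 19 alternatives after X-rays and in 6 of 19 after protons. All other values among the 3855 were not called under either setting, so that count does not measure how stable the UNG calls were. Counts of called repair genes are small, and the following changes concern 1 to 7 genes. In BL41 after X-rays the count of 1 became 0 with the replicate block, 0 with trimmed mean scaling and the replicate block, 2 with trimmed mean scaling (UNG and MSH6), 2 with library weights (UNG and SMUG1) and 3 at a threshold of 0.1 (UNG, SMUG1 and ERCC2). Of all 15069 genes, 309 passed after X-rays with trimmed mean scaling, 829 with library weights and 1703 at a threshold of 0.1. After protons the count of 1 became 0 with the block, with or without the scaling, 3 with library weights (UNG, SMUG1 and APTX) and 7 at a threshold of 0.1. Of all 15069 genes, 1311 passed after protons with library weights and 2362 at a threshold of 0.1, so gained repair genes came with many others. Leaving out 1 library or number gave 0 to 2 genes after X-rays and 0 to 1 after protons. In J3D library weights called 1 gene after X-rays, TDP1 (-0.28, adjusted p = 0.0453), among 693 of all genes. Over 19 alternatives UNG in BL41 stayed between -0.88 and -0.66 after X-rays, called in 11, and between -0.61 and -0.37 after protons, called in 6. With the replicate block limma called 0 of all genes in BL41 (2428 and 2829 at an unadjusted p under 0.05 after X-rays and protons). What a library number marks is not given in the labels; deviations of same-numbered libraries correlated at -0.73 to 0.31, which the centring biases downwards, so this cannot show whether they are pairs. The filter on low values removed 0 genes, so it repeats the main fit. It is counted among the alternatives, and its values and UNG calls could not have differed. The unknown depth and the 3 libraries per group limit what could be detected.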
